A study of Saccharomyces cerevisiae with 4 samples.

Results

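The promoters of 35 genes of glycolysis, alcoholic fermentation, acetate formation and glycerol synthesis were examined in maps of open chromatin from budding yeast. The genes form a fixed list of enzymes, and all 35 were found among the 6002 nuclear protein-coding genes of the R64 annotation. A promoter was taken as the 500 bp upstream of the start codon, and it counted as open in a library when a peak of that library overlapped it by at least 1 bp. Peaks came from ATAC-seq, an assay that sequences the places where the transposase Tn5 can insert adapters into chromatin. The libraries were 2 from cells deleted for SWC4 (swc4Δ) and 2 from wild-type cells (WT), both labelled as strain BY4741, grown at 30 °C and collected in mid-logarithmic phase; the labels give no carbon source and do not say whether replicates were separate cultures. Differences between the libraries of one genotype may therefore be technical. Swc4 belongs to both SWR1, the complex that exchanges H2A for its variant Htz1, and NuA4, which acetylates histone H4 and H2A.

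Glycolysis turns glucose into pyruvate, and budding yeast growing on glucose passes most of that pyruvate on to ethanol even when oxygen is present. Several steps have more than one gene, of which one supplies most of the enzyme on glucose and the others are used on other carbon sources, in other compartments or under stress. The genes of the main isozymes are among the most strongly transcribed in the yeast genome, and the factors Rap1 and Gcr1 are known to activate many of them.

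The lists held 2826 and 2368 peaks in the swc4Δ libraries and 2354 and 2115 in the WT libraries. Each peak has the authors' fold enrichment over the background, and the folds lay on an even ladder that gave the depth. The background was 24.4 and 25.5 overlapping fragments in the swc4Δ libraries and 22.6 and 23.99 in the WT libraries. The median fold of a whole list was 2.72 and 2.38 in swc4Δ and 2.50 and 2.28 in WT, so swc4Δ replicate 1 had higher folds in general. Folds were therefore ranked within a list, as a percentile in which 100 stands for the strongest peak. SWC4 (YGR002C, chromosome VII, 498476 to 499906) had no peak over its promoter or coding region in any of the 4 libraries, so peaks do not check the deletion. On 4 chromosomes (IV, V, VIII and XI), which held 8 of the 35 genes, a larger share of promoters had a peak in each swc4Δ library than in each WT library. The difference was least on V, with 55.9% and 65.3% in swc4Δ and 52.1% and 45.8% in WT. On XI 91.8% and 77.7% of all promoters had a peak in the swc4Δ libraries, against 45.6% and 41.2% in the WT libraries.

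Most promoters of the list were open, and their peaks stood near the top of each list. A peak was present at 30 and 30 of the 35 promoters in the swc4Δ libraries and at 26 and 26 in the WT libraries. This was 85.7% and 85.7% in swc4Δ and 74.3% and 74.3% in WT. Over all 6002 promoters, 55.9% and 44.6% had a peak in swc4Δ and 46.3% and 38.6% in WT. Of the 35 promoters, 23 (65.7%) had a peak in all 4 libraries, against 31.1% of all promoters, and 4 had a peak in none, against 37.4%. Seen over the promoters with a peak, the median fold percentile of the list was 89.1 and 88.1 in the swc4Δ libraries and 87.4 and 92.8 in the WT libraries. The same median over all promoters with a peak was 60.2 and 61.7 in swc4Δ and 60.05 and 65.2 in WT. The top 10% of each list held 14 and 14 of the listed promoters in swc4Δ and 11 and 17 in WT. This was 46.7% and 46.7% of those with a peak in swc4Δ and 42.3% and 65.4% in WT, against 14.5% and 15.2% of all promoters with a peak in swc4Δ and 14.6% and 14.9% in WT.

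A single promoter of the list, that of SFA1, was open in every swc4Δ library while no WT library had a peak there, against 5.23% of all promoters called that way. No promoter of the list showed the opposite, against 1.05% of all promoters. More swc4Δ than WT libraries held a peak at 7 promoters of the list (20%), against 19.4% of all promoters, and fewer did at 0, against 7.93%. The 7 were GPM2, PDC5, ADH2, ADH5, ALD3, ACS2 and SFA1, of which GPM2 and SFA1 lie on chromosome IV. The list was not tested as a whole. For a single value, 2 against 2 libraries cannot give an exact two-sided permutation p below 0.333, and the exact p of the percentile ranged from 0.333 to 1 over the 23 promoters with a peak in all 4 libraries.

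**Figure D1:**
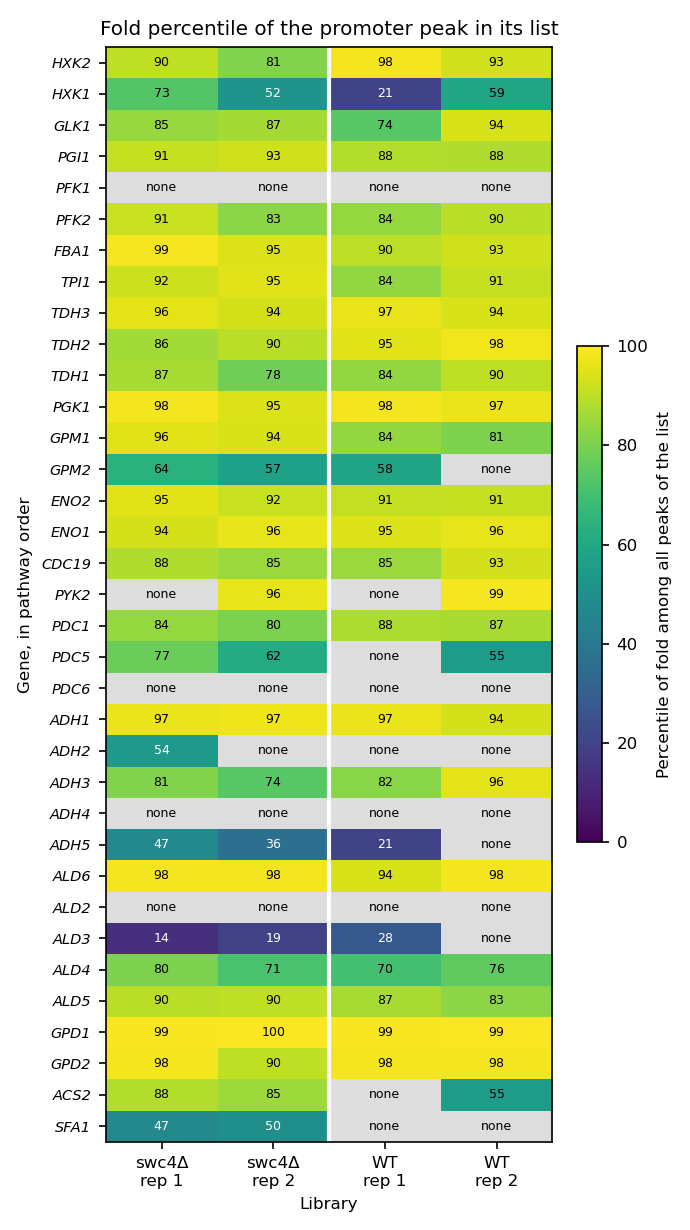
Fold percentile of the strongest peak at each of the 35 promoters (rows, in pathway order) in the swc4Δ and WT libraries (columns); 100 is the strongest peak of a list and grey cells have no peak. The main glycolytic genes other than PFK1 are above 80 in every library, while ADH5, ALD3 and SFA1 are below 50 or without a peak, and PFK1, PDC6, ADH4 and ALD2 have none.

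The genes of the first steps had peaks in every library, apart from PFK1. HXK2, the main hexokinase on glucose (chromosome VII), had folds of 5.20 and 3.51 in the swc4Δ libraries and 4.83 and 3.92 in the WT libraries. Its percentiles were 90.3 and 80.9 in swc4Δ and 98.1 and 92.8 in WT, so both swc4Δ libraries ranked it below both WT libraries. The HXK2 folds overlapped between the genotypes. HXK1, a hexokinase known to be repressed by glucose (VI), had percentiles of 73.4 and 51.9 in swc4Δ and 20.6 and 59.2 in WT, with the groups overlapping. In WT replicate 1 the HXK1 peak lay mostly in the gene, with its summit 369 bp after the start of the coding sequence. GLK1, the glucokinase gene (III), ranked high in spite of being a minor isozyme, at 84.7 and 86.6 in swc4Δ and 74.0 and 94.0 in WT.

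PGI1, the phosphoglucose isomerase (II), had percentiles of 91.3 and 92.7 in swc4Δ and 88.4 and 87.9 in WT. Except in WT replicate 1, these belong to a summit far upstream of the 500 bp. The genes of the phosphofructokinase subunits differed under the 500 bp rule. PFK2, the beta subunit (XIII), had percentiles of 91.5 and 82.5 in swc4Δ and 84.3 and 89.7 in WT, with summits between -670 and -667 bp from the start codon. PFK1, the alpha subunit (VII), had no peak in its 500 bp in any library. A peak lay just beyond the window, by 9 and 39 bp in the swc4Δ libraries and by 83 and 283 bp in the WT libraries. Its summit was at -906 and -913 bp from the PFK1 start codon in swc4Δ and at -959 and -970 bp in WT, with folds of 3.74 and 2.76 in swc4Δ and 3.52 and 3.16 in WT. With a window of 800 bp, chosen after seeing the data, 32 and 31 listed promoters had a peak in swc4Δ and 29 and 28 in WT, against 58.3% and 47.4% of all promoters in swc4Δ and 49.4% and 41.5% in WT.

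The aldolase gene FBA1 (XI) had folds of 6.74 and 4.68 in swc4Δ and 3.94 and 3.92 in WT. With the summit counts of 170, 123, 92 and 97 fragments, exact 95% Poisson intervals of the fold were 5.77 to 7.82 and 3.90 to 5.58 in swc4Δ and 3.18 to 4.82 and 3.19 to 4.77 in WT. These intervals cover counting error only. Only swc4Δ replicate 1 stood apart from the WT libraries by this measure, and that library had higher folds in general. The FBA1 percentiles were 98.6 and 94.8 in swc4Δ and 90.1 and 92.8 in WT. TPI1, the triose phosphate isomerase (IV), had percentiles of 92.3 and 95.04 in swc4Δ and 83.8 and 91.0 in WT.

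All 3 glyceraldehyde-3-phosphate dehydrogenase genes were open in every library. TDH3 (VII), the gene of the main isozyme, had percentiles of 95.9 and 93.7 in swc4Δ and 96.7 and 94.0 in WT, and the groups overlapped. TDH2 (X) had percentiles of 86.0 and 89.5 in swc4Δ and 95.3 and 97.7 in WT. Its folds of 4.73 and 4.11 in swc4Δ and 4.41 and 4.64 in WT overlapped, so the separation was one of rank. TDH1 (X), the minor isozyme and known for its use in stressed and resting cells, had percentiles of 86.9 and 78.3 in swc4Δ and 83.8 and 90.3 in WT.

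PGK1, the phosphoglycerate kinase (III), was among the strongest promoters of the list, at percentiles of 98.2 and 94.6 in swc4Δ and 98.3 and 96.9 in WT. GPM1, the phosphoglycerate mutase in use on glucose (XI), had folds of 5.99 and 4.57 in swc4Δ and 3.52 and 3.16 in WT. Its percentiles were 95.6 and 94.0 in swc4Δ and 83.8 and 80.6 in WT, and the groups did not overlap. GPM2 (IV), a homologue with little or no mutase activity, was reached by a narrow peak of 282 and 252 bp in swc4Δ and 265 bp in WT replicate 1. That peak overlapped the outer edge of the GPM2 window by 15 and 11 bp in swc4Δ and 22 bp in WT replicate 1. In WT replicate 2 a similar peak ended 12 bp outside it.

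Both enolase genes were strongly open. ENO2, the glucose-induced enolase gene (VIII), had percentiles of 95.4 and 91.7 in swc4Δ and 90.7 and 91.0 in WT. ENO1 (VII), the other enolase gene, had percentiles of 93.6 and 96.3 in swc4Δ and 94.6 and 96.5 in WT. CDC19, the main pyruvate kinase gene (I), had percentiles of 88.0 and 84.8 in swc4Δ and 84.9 and 93.2 in WT. PYK2, the minor pyruvate kinase (XV), was reached in the second library of each genotype only, by 7 bp in swc4Δ replicate 2 and 8 bp in WT replicate 2, from a peak of 2770 and 2757 bp whose summit lay at -1757 and -1818 bp. In the first libraries a peak of 2772 bp in swc4Δ and 2677 bp in WT ended 23 and 74 bp outside the window. The high percentiles listed for PYK2, 96.3 and 98.5, therefore belong to that upstream summit.

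In the branch to ethanol PDC1, ADH1 and ADH3 were open in every library and the other genes in some or none. PDC1, the main pyruvate decarboxylase gene (XII), had percentiles of 84.1 and 80.4 in swc4Δ and 87.8 and 87.3 in WT, so both swc4Δ libraries ranked it below both WT libraries. Its folds of 4.53 and 3.47 in swc4Δ and 3.77 and 3.56 in WT overlapped. PDC5 (XII), which is known to be expressed when PDC1 is lost, had narrow peaks of 317 and 325 bp in swc4Δ and of 249 bp in WT replicate 2. Their folds were 3.90 and 2.64 in swc4Δ and 2.40 in WT replicate 2, while WT replicate 1 had no peak within 1583 bp. PDC6 (VII), a gene with little expression on glucose, had no promoter peak in any library.

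ADH1, the main alcohol dehydrogenase of fermentation (XV), had folds of 6.27 and 5.17 in swc4Δ and 4.66 and 4.00 in WT. Its percentiles were 97.1 and 97.4 in swc4Δ and 97.2 and 93.5 in WT and overlapped. ADH2 (XIII), the glucose-repressed enzyme that oxidises ethanol, had a peak in swc4Δ replicate 1 alone, 222 bp wide with a fold of 2.84. ADH3, the mitochondrial enzyme (XIII), had percentiles of 81.1 and 74.0 in swc4Δ and 82.4 and 96.0 in WT. The ADH3 folds of 4.22 and 3.06 in swc4Δ and 3.43 and 4.28 in WT overlapped. ADH4 (VII) had no peak within 4161 and 5302 bp in swc4Δ and 5262 and 7984 bp in WT. ADH5 (II) had low folds of 2.64 and 2.15 in swc4Δ and 2.03 in WT replicate 1, and no peak in WT replicate 2.

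Aldehyde dehydrogenases turn acetaldehyde into acetate. ALD6, the main cytosolic enzyme (XVI), had folds of 6.54 and 5.36 in swc4Δ and 4.28 and 4.72 in WT, at percentiles of 98.1 and 98.2 in swc4Δ and 94.1 and 98.1 in WT. The neighbours ALD2 and ALD3 (XIII) are known to be induced by stress. ALD2 had no peak in any library, and ALD3 had folds of 1.97 and 1.92 in swc4Δ and 2.12 in WT replicate 1, at percentiles of 13.7 and 19.3 in swc4Δ and 27.6 in WT replicate 1. Among the mitochondrial enzymes, ALD4 (XV), the major one, had percentiles of 80.2 and 71.2 in swc4Δ and 70.3 and 75.5 in WT. ALD5 (V), the minor one, ranked higher than ALD4 in every library, at 89.8 and 90.4 in swc4Δ and 87.1 and 82.6 in WT.

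Glycerol synthesis starts with glycerol-3-phosphate dehydrogenase, and both of its genes had strong promoters. GPD1, known to be induced by osmotic stress (IV, 411825 to 413000), had folds of 6.90 and 5.89 in swc4Δ and 5.17 and 5.04 in WT. It ranked 28 and 10.5 in the swc4Δ lists and 19 and 14.5 in the WT lists, counting a tie at its middle rank, and its summit lay at -381 bp from the start codon in all 4 libraries. GPD2 (XV), linked to redox balance without oxygen, had percentiles of 98.3 and 90.4 in swc4Δ and 98.3 and 98.3 in WT.

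ACS2, the acetyl-CoA synthetase used on glucose (XII, 445524 to 447575), lies beside the rDNA array. A peak of 5539 and 3266 bp reached its promoter in swc4Δ and, in replicate 1, ran through it into the gene, with the summit at -3285 and -3333 bp, so the listed folds of 5.00 and 3.81 belong to a place outside the promoter. In WT replicate 2 a peak of 1030 bp with a fold of 2.40 reached it, and in WT replicate 1 a peak ended 161 bp away. SFA1, which acts on formaldehyde adducts and as an alcohol dehydrogenase (IV, 159604 to 160764), was open in swc4Δ alone. Its folds there were 2.64 and 2.38, with intervals of 2.05 to 3.35 and 1.83 to 3.04, and the nearest WT peaks were 7893 and 2852 bp from the window. On chromosome IV, 12.8% of all promoters showed the same pattern as SFA1, against 1.96% on the 12 chromosomes other than IV, V, VIII and XI. The part of that chromosome-wide excess in the SFA1 peak was not tested.

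Major and minor isozymes were then compared. The 10 promoters of major isozymes had a peak in every library. Of the 14 promoters of minor isozymes, 10 and 10 had a peak in the swc4Δ libraries and 8 and 7 in the WT libraries. The share was 71.4% and 71.4% in swc4Δ and 57.1% and 50% in WT. Over all promoters the share was 50.3% ± 7.999 in swc4Δ and 42.5% ± 5.48 in WT (SD, n = 2 each), a difference of 7.83 points. With every major promoter open, the gap between major and minor follows from the minor share alone. It was 28.6 ± 0 points (SD, n = 2) in swc4Δ and 46.4 ± 5.05 points (SD, n = 2) in WT, a difference of -17.9 points. The gap averaged 37.5 points over the 4 libraries, and 9.29 points where the summit had to lie inside the window. Of the 6 genes that serve a step alone or as a subunit, 5 had a peak in every library, PFK1 being the exception. The groups of genes were drawn by textbook roles, and this comparison has no test.

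The median percentile of major isozymes with a peak was 92.8 and 90.6 in swc4Δ and 92.4 and 93.0 in WT. Minor isozymes with a peak had medians of 75.4 and 70.0 in swc4Δ and 66.2 and 90.3 in WT, a value that in WT replicate 2 rests on 7 promoters, PYK2 among them. The isozymes were set against each other in 15 pairs, of which 6 had peaks at both promoters in every library. Among these 6, the major isozyme had the stronger peak in all 4 libraries in 2 pairs, HXK2 with HXK1 and TDH3 with TDH1. The minor one did in 1 pair, ALD5 against ALD4, and HXK2 with GLK1, TDH2 with TDH1 and ENO2 with ENO1 were mixed. In 8 of the other pairs the minor promoter lacked a peak in at least 1 library. Among these, PDC6, ADH4 and ALD2 had no peak in any library, so their pairs hold no comparison of peaks. In the rest of the 8 the major one was stronger wherever both had one, though the GPM2 peak only touched the edge of its window. CDC19 with PYK2 was the remaining pair, and PYK2 was the stronger in both libraries where it had a peak.

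**Figure D2:**
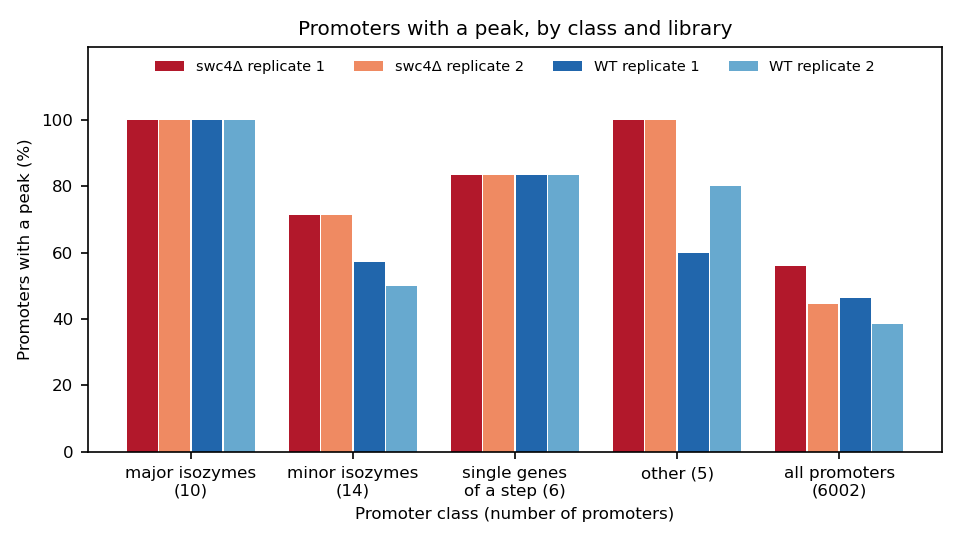
Percentage of promoters with a peak (vertical axis) in each class of listed promoters and over all promoters, with 1 bar per library. Major isozymes are at 100% in all 4 libraries, and minor isozymes are at 71.4% in both swc4Δ libraries and at 57.1% and 50% in the WT libraries.

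Peaks at the listed promoters were wide. Their median width was 1176.5 and 904.5 bp in the swc4Δ libraries and 1042.5 and 1196.5 bp in the WT libraries, against 512 and 530 bp in swc4Δ and 498 and 482 bp in WT over all promoters with a peak. Their summits lay farther from the gene, at a median of -403 and -447 bp from the start codon in swc4Δ and -359.5 and -396 bp in WT. Over all promoters with a peak the median was -261 and -297 bp in swc4Δ and -272 and -308.5 bp in WT. Summits were inside the 500 bp at 20 and 20 listed promoters in swc4Δ and 15 and 16 in WT, or 66.7% and 66.7% of those with a peak in swc4Δ and 57.7% and 61.5% in WT. Over all promoters with a peak the share was higher, at 74.8% and 70.8% in swc4Δ and 72.1% and 67.6% in WT. For 11 genes the summit was inside the window in all 4 libraries, and GPD1, ALD4, TDH3, PGK1 and ADH3 were among them.

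Several summits kept their place between libraries while others did not. At PFK2 they lay between -667 and -670 bp in all 4 libraries, and at ALD4 between -254 and -270 bp. At TDH2 the summit was at -401 and -396 bp in swc4Δ and at -290 and -289 bp in WT. HXK2 had summits at -454 and -475 bp in swc4Δ and at -556 and -548 bp in WT, and FBA1 at -457 and -391 bp in swc4Δ and at -534 and -531 bp in WT. A rule that asked for the summit inside 500 bp therefore counted FBA1 and HXK2, beside SFA1, as open in swc4Δ only, although all 4 libraries had a peak there. At PGI1 the summit was at -1310 and -1301 bp in swc4Δ and -350 and -1291 bp in WT, since the peak of WT replicate 1 was 742 bp wide and the others 1635 to 2081 bp. At GPM1 it was at -1921 bp in WT replicate 1 and between -256 and -297 bp in the other libraries.

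**Figure D3:**
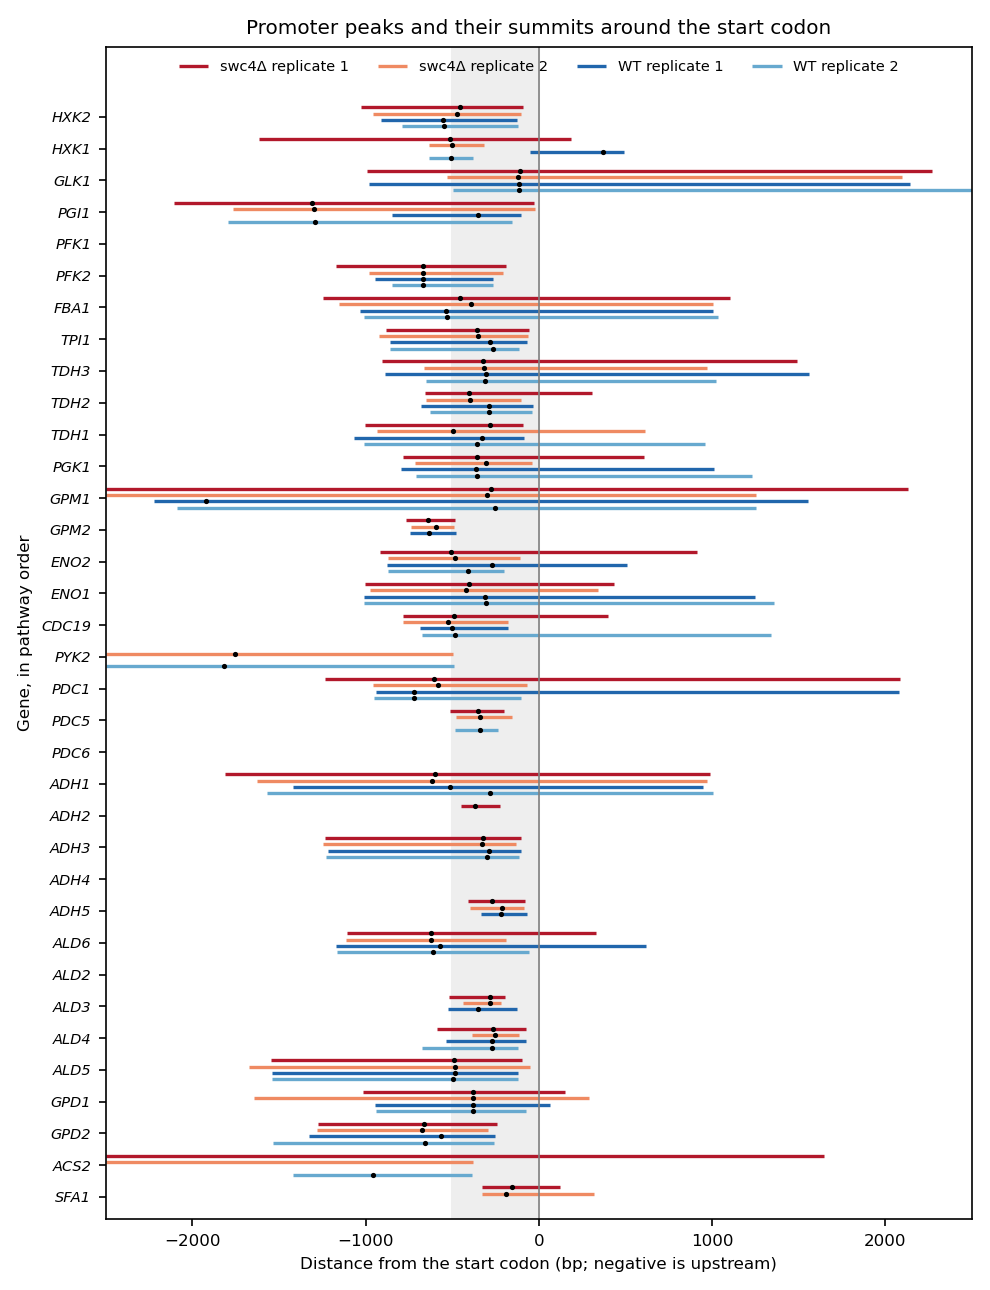
Extent of the strongest promoter peak of each listed gene (horizontal lines, 1 per library) and its summit (black points) by distance from the start codon in bp; the grey band is the 500 bp window and lines are clipped at the plot's edges. The GPM1, GLK1, FBA1, TDH3 and ADH1 peaks run through the start codon in every library, whereas those of HXK2, PFK2, TPI1 and ADH3 end before it.

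Ranks in lists of different length do not show a change, so folds were also ranked among the 1867 promoters with a peak in all 4 libraries, a scale added after the data were seen. Of the 23 listed promoters among them, each swc4Δ library exceeded each WT library at 4 (17.4%), against 24.4% of the 1867, and lay below each at 5 (21.7%), against 27.2%. The 4 above were PGI1, FBA1, GPM1 and ALD5. The 5 below were HXK2, TDH2, PDC1, ADH3 and GPD2. Neither share exceeded that of all shared promoters. Among all peaks of a list the counts were 7 (30.4%) above, against 31.0% of the 1867, and 4 (17.4%) below, against 16.4%. When each was ranked among the shared promoters of its own chromosome, 4 (17.4%) lay above, against 21.4% of the 1867, and 6 (26.1%) below, against 22.5%.

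For GPM1 the percentile among shared promoters was 89.2 and 87.4 in swc4Δ and 67.1 and 65.2 in WT. FBA1 had 96.4 and 89.1 in swc4Δ and 79.4 and 86.3 in WT. Both genes lie on chromosome XI. When ranked among the shared promoters of that chromosome, GPM1 had 78.0 and 78.9 in swc4Δ and 80.6 and 78.0 in WT, and FBA1 had 87.5 and 82.3 in swc4Δ and 89.7 and 90.1 in WT. Within its chromosome GPM1 thus overlapped between the genotypes and FBA1 turned round, with swc4Δ below WT. ALD5 on chromosome V overlapped between the genotypes on that scale, at 74.8 and 62.6 in swc4Δ and 67.4 and 62.6 in WT. PGI1 kept its order, with 80.8 and 91.0 in swc4Δ and 79.5 and 80.3 in WT. Its summit, however, lay outside the promoter, at -1310 and -1301 bp in swc4Δ and -1291 bp in WT replicate 2. In WT replicate 1 it was another summit, at -350 bp. The order of PGI1 is therefore not one of the promoter itself.

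The promoters that ranked lower in swc4Δ lay on other chromosomes. HXK2 had 75.9 and 61.9 in swc4Δ and 95.4 and 86.3 in WT among shared promoters, and 69.1 and 66.6 in swc4Δ and 92.2 and 80.0 in WT among those of chromosome VII. TDH2 had 66.2 and 77.9 in swc4Δ and 90.04 and 95.02 in WT, and PDC1 61.9 and 61.2 in swc4Δ and 74.8 and 76.7 in WT. For ADH3 the values were 55.6 and 50.4 in swc4Δ and 64.9 and 92.0 in WT. These 4 kept their order among all peaks of a list, among shared promoters and within their chromosome. The 3 scales rank the same folds, so they are not separate evidence. The share of all 1867 promoters that kept an order on all 3 scales was not counted. At each of these 4 genes the folds overlapped between the genotypes, so the separation was one of rank. GPD2 overlapped within its chromosome, at 92.8 and 82.5 in swc4Δ and 91.0 and 92.8 in WT. For HXK2, TDH2, PDC1 and ADH3 the exact permutation p was 0.333 on each of the 3 scales, the smallest that the design allows.

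**Figure D4:**
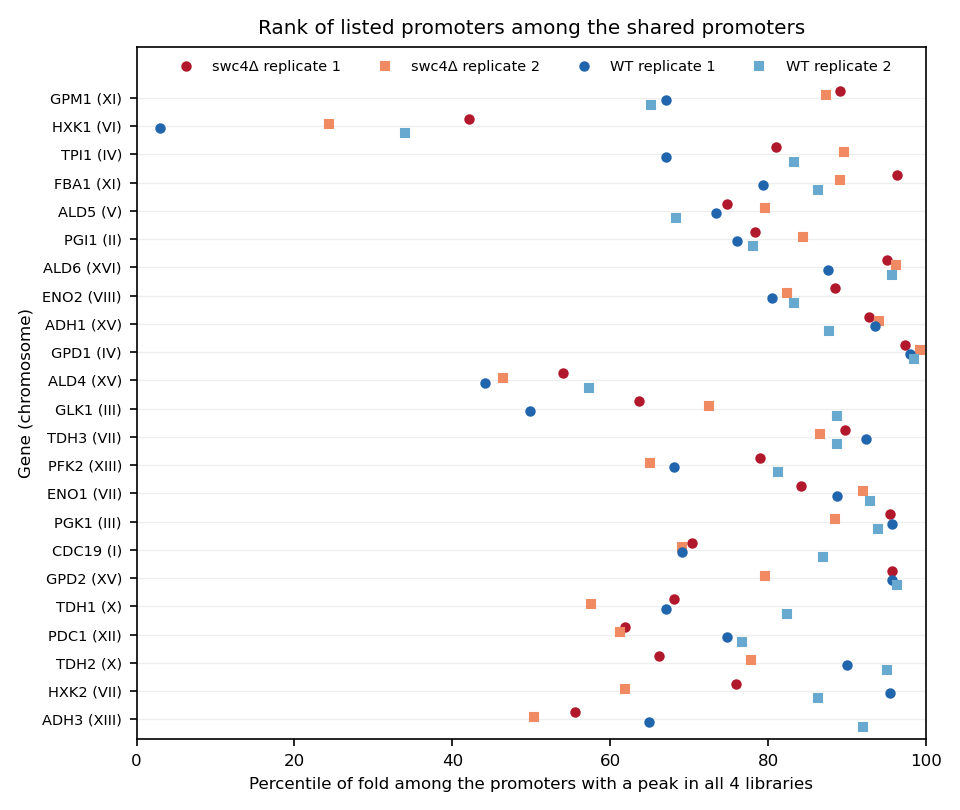
Percentile of fold among the 1867 promoters with a peak in all 4 libraries (horizontal axis) for the 23 listed promoters among them, with the chromosome in brackets, ordered by the mean of swc4Δ minus that of WT. GPM1, at the top, has 89.2 and 87.4 in swc4Δ and 67.1 and 65.2 in WT, while at the bottom ADH3, HXK2, TDH2 and PDC1 have the swc4Δ points left of the WT points.

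Coding regions of the list often lay under peaks, counting any peak and not the promoter peak alone. At least 50% of the coding bases lay under peaks in all 4 libraries at 8 of the 35 genes (22.9%), against 3.93% of all 6002 genes. They were GLK1, FBA1, TDH3, GPM1, ENO2, PDC1, ADH1 and GPD1. At ENO2 and PDC1 in the second library of each genotype, and at GPD1 in WT replicate 2, the promoter peak ended before the start codon. Coverage there came from separate peaks. The coding region of GPM1 was covered to 100% in every library, and that of GLK1 to 100% likewise. TDH3 was covered to 100% and 97.0% in swc4Δ and to 100% and 100% in WT, and ADH1 to 94.2% and 92.5% in swc4Δ and to 90.6% and 95.8% in WT. In contrast 9 of the 35 genes had no covered base in any library, or 25.7%, against 53.8% of all genes. Among them was HXK2, whose promoter was strongly open in all 4 libraries.

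At some genes the coverage separated the genotypes. The coding region of ENO1 was covered to 33.0% and 26.0% in swc4Δ and to 95.1% and 100% in WT. That of TDH1 was covered to 34.7% and 61.1% in swc4Δ and to 91.3% and 95.8% in WT. ALD6 had 21.8% and 17.2% in swc4Δ and 41.1% and 48.3% in WT, and GPD2 0% and 15.2% in swc4Δ and 22.6% and 49.4% in WT. At these 4 genes (11.4%) coverage was lower in each swc4Δ library than in each WT library, against 5.86% of all genes. The opposite order was seen at 5 genes (14.3%), against 10.0% of all genes, and these were PDC6, ALD4, ALD5, ACS2 and SFA1. ALD5, on chromosome V, had 38.3% and 81.5% in swc4Δ and 0% and 0% in WT. No promoter peak of ALD4 or ALD5 reached the coding region, and PDC6 had no promoter peak, so separate peaks covered these genes. Away from chromosomes IV, V, VIII and XI the order with swc4Δ below was seen at 4 of 27 listed genes (14.8%), against 7.63% of all genes there, and the opposite order at 3 (11.1%), against 3.69%. A gene with no covered base in any library cannot separate the genotypes. Such genes were 25.7% of the list and 53.8% of all genes, so the higher shares of the list cannot be read as an excess.

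At the main isozyme genes TDH3, ENO2 and PDC1 the genotypes overlapped. ENO2 was covered to 69.6% and 70.7% in swc4Δ and to 69.3% and 91.6% in WT. CDC19 and PGK1 depended on the library: CDC19 had 69.7% and 15.1% in swc4Δ and 68.4% and 89.2% in WT, and PGK1 83.8% and 0% in swc4Δ and 80.6% and 98.4% in WT. The coding sequences of ENO1 and ENO2, of the TDH genes and of the PDC genes are close copies of each other, and the sources used here do not say how reads with several matches were handled. Coverage of these genes is uncertain for that reason. It also depends on the peak threshold, since a weak stretch is either joined to a peak or left out.

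**Figure D5:**
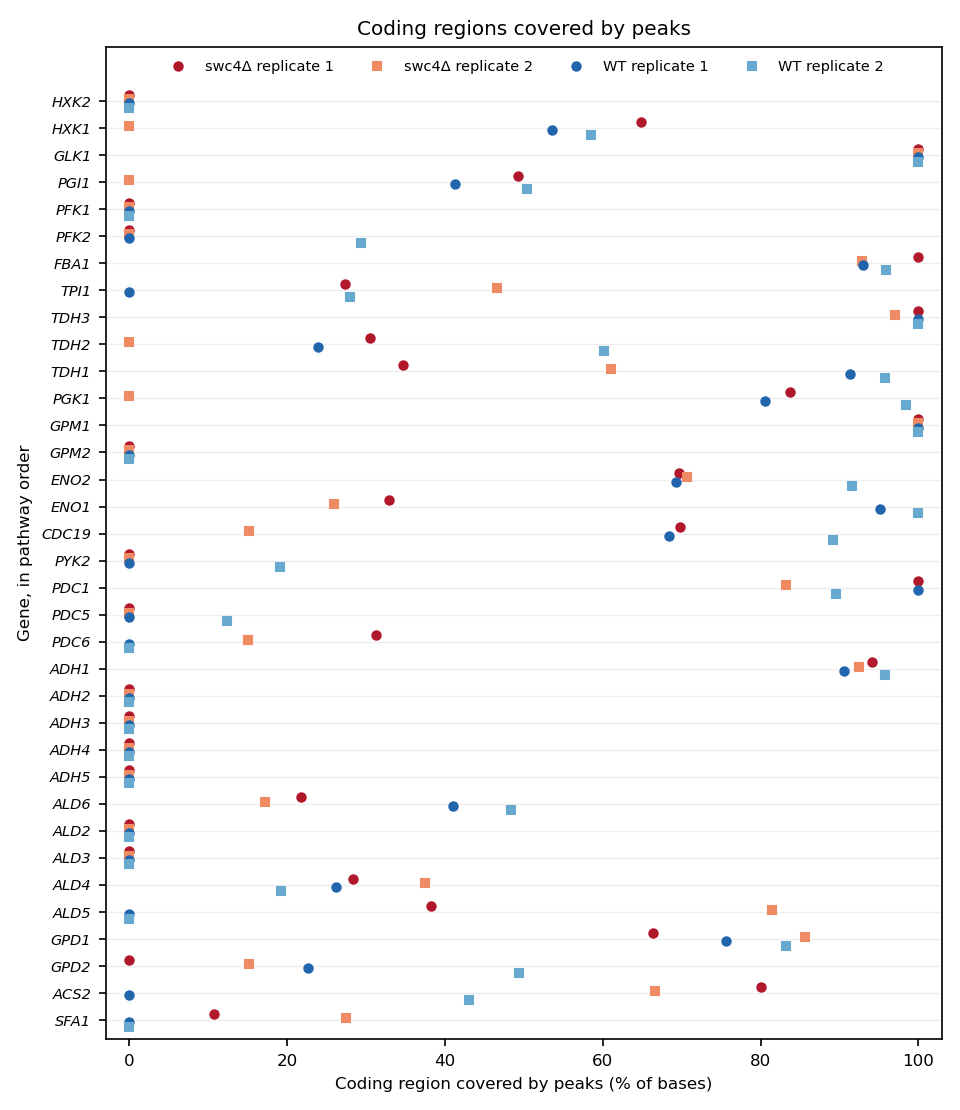
Percentage of the coding bases of each listed gene that lie under peaks (horizontal axis), with 1 point per library. ENO1 is at 33.0% and 26.0% in swc4Δ and at 95.1% and 100% in WT, while TDH3, GPM1, GLK1, FBA1 and ADH1 are above 90% in all 4 libraries.

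A further 22 genes around the same pathway, its regulators and neighbouring branches among them, gave a comparison. Their promoters had a peak at 19 and 19 in swc4Δ and 19 and 18 in WT. Of the 22, 18 had one in all 4 libraries, against 31.1% of all promoters. None of the 22 was open in both libraries of a single genotype only, against 5.23% of all promoters for swc4Δ and 1.05% for WT. Their median percentile was 89.0 and 84.8 in swc4Δ and 85.7 and 82.5 in WT. TYE7, a transcription factor of glycolytic genes, had 98.5 and 97.99 in swc4Δ and 97.6 and 99.1 in WT, whereas GCR1 had 54.3 and 61.7 in swc4Δ and 74.0 and 51.1 in WT. GCR2 and PDC2, activators of glycolytic and of PDC genes, had no promoter peak in any library. GPP1, which makes glycerol from glycerol 3-phosphate, ranked at 99.1 and 97.99 in swc4Δ and 99.2 and 98.9 in WT, close to GPD1. PCK1, the gluconeogenic enzyme on chromosome XI, had 91.9 and 88.3 in swc4Δ and 47.6 and 42.3 in WT. On that chromosome 91.8% and 77.7% of all promoters had a peak in swc4Δ, against 45.6% and 41.2% in WT. The rank of PCK1 within its chromosome was not taken.

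The series also holds the authors' list of open regions for each genotype, with 2602 regions for swc4Δ and 1002 for WT. These lists have no replicates, and the sources used here do not say whether they pool the libraries. They reached 28 of the 35 promoters in swc4Δ and 20 in WT, against 54.3% of all promoters in swc4Δ and 22.0% in WT. Of the 10 major isozymes, 10 and 9 were in the swc4Δ and the WT list, and of the 14 minor isozymes 8 and 3. ALD4 was the major isozyme in the swc4Δ list alone. HXK1, PYK2, PDC5, ADH5 and ALD5 were the minor isozymes in the swc4Δ list alone. Of these genes, HXK1, ALD4 and ALD5 had a promoter peak in every library's own list. The share of all promoters in the swc4Δ list alone was not counted. As the swc4Δ list reached more promoters in general, these names do not set the isozymes apart.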

How the data were processed

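The submitters' processing notes name the sacCer3 build and 5 tools, without saying what each did: deepTools 1.5.11, SAMtools 1.4, Trim Galore 0.5.0, Picard 2.18.7 and Bowtie2 2.3.1. Not given in the sources used here were the peak caller, its settings, any shift for the Tn5 cut and the handling of reads with several matches. In the deposited list of each library a peak carries 3 values, which are its fold ratio to background, and its p-value and q-value as −log10. The authors called these peaks per library, as the list names show. The 2 deposited lists per genotype hold a whole-number score per region, not used here beyond presence, and their genotype came from the code in their names.

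Every fold lay within 0.000134 of a whole number of fragments, and the deposited −log10 p-values followed from a Poisson test against a constant background, to within 0.000157. The folds thus carry no correction for a chromosome's own level. Genes came from the RefSeq table of R64, the assembly that sacCer3 names, with strand read from the systematic name. No genome sequence was used here, so the planned motif search was not run. Where several peaks overlapped a promoter, the one with the highest fold was taken. Summit counts were recovered from the ladder, with exact 95% Poisson intervals. Scripts ran in Python 3.11.15 with pandas 2.3.3, NumPy 2.4.6 and SciPy 1.17.1 and were tested on simulated peak lists.

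The members, classes and lists were chosen with earlier results of these data known. The rule for values by library took members open in 1 genotype only, with separated percentiles, among the 5 highest or lowest, or in an isozyme pair. The other members given, and the related genes with values, were added after their values were seen. Alternatives were a −log10 q of at least 5, 2115 peaks per list, promoters of 300 bp or ended at the upstream gene, the summit or 50% of the shorter interval as overlap, chromosomes IV, V, VIII and XI left out, each library left out and a replicate block. Added after seeing the data were a window of 800 bp, the ranks among shared promoters and the alternatives for coding coverage.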

Additional observations from a re-analysis of the deposited data

How the results depend on the processing

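The share of listed promoters with a peak was 11.4 points higher in swc4Δ, and that of all promoters 7.83 points higher. For the list the difference was 12.9 points at the stricter q and with the summit rule, 10.0 with equal numbers of peaks and 8.57 with 300 or 800 bp. With promoters ended at the upstream gene it was 14.3, with the 50% overlap 17.1 and without chromosomes IV, V, VIII and XI 9.26. Over all promoters without these chromosomes, 51.8% and 36.7% had a peak in swc4Δ and 46.5% and 38.8% in WT, so the genotypes overlapped there. Leaving out any 1 library had to give 11.4 again, since the libraries of each genotype had equal counts. SFA1 alone was open in both swc4Δ and neither WT library, against 5.23% of all promoters. The count in the list was 2 at the stricter q (ADH5 added), 3 with the summit rule (FBA1 and HXK2 added) and 3 with the 50% overlap (HXK1 and PFK2 added). It was 0 without the 4 chromosomes, against 1.96% of all promoters there. Leaving out 1 library gave 1 to 4, with 2 without swc4Δ replicate 2, 4 without WT replicate 1 and 3 without WT replicate 2. No listed promoter was lost under any alternative run, against 1.05% of all promoters under the main rule. Apart from the 1.96%, the shares of all promoters gained or lost under the alternatives were not counted. The replicate block, with both numbers pooled, gave 8 gained and 0 lost, and the block changed no other value. Across the 1867 shared promoters, which are not replicates, same-numbered libraries did not deviate together (r = -0.0438). That correlation cannot show a shift common to all promoters of a library. Replicate 1 had more peaks than replicate 2 in both genotypes, at 2826 against 2368 in swc4Δ and 2354 against 2115 in WT. Whether the numbers pair the libraries is therefore not known.

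The median percentile differed by -1.53 points, by -4.26 without the 4 chromosomes and by -4.21 (without WT replicate 1) to 1.16 (without WT replicate 2) with 1 library left out. The major minus minor share averaged 37.5 points, 50.0 with 300 bp or the 50% overlap and 9.29 with the summit rule. Its swc4Δ minus WT difference of -17.9 points was -21.4 at the stricter q, -14.3 with equal numbers, 300 bp or 800 bp, and -12.9 with the summit rule or promoters ended at the upstream gene; leaving out 1 library gave -21.4 to -14.3. The median width differed by -79 bp, by -327 with the summit rule, by -303 with the 50% overlap and by -215 to 57 with 1 library left out. Listed promoters with both swc4Δ ranks above both WT ranks numbered 7 in whole lists and 4 on either scale of shared promoters. Coding regions covered to at least 50% in all 4 libraries numbered 8 (22.9%), against 3.93% of all genes. They numbered 4 without the 4 chromosomes, where the share of all genes was not counted. The cause of these shifts was not tested. With 22.6 to 25.5 background fragments, a promoter without a peak is one not called at this depth.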

Other observations

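Listed promoters lay in long gaps between genes. The distance to the upstream protein-coding gene had a median of 785 bp, against 448 bp over all promoters, and was at least 500 bp at 26 of the 35 (74.3%), against 43.7% of all. Among all 2625 promoters with such a gap, 68.5% and 58.2% had a peak in swc4Δ and 55.4% and 49.1% in WT, more than over all promoters. Of the 26 listed ones, 84.6% and 80.8% had a peak in swc4Δ and 73.1% and 69.2% in WT. The median fold percentile of those of the 2625 with a peak was 70.4 and 70.1 in swc4Δ and 70.3 and 70.7 in WT. This lay between the medians of the list and of all promoters. The 26 listed promoters with such a gap had medians of 90.1 and 89.5 in swc4Δ and 87.8 and 93.0 in WT. The upstream gene was divergent at 15 of the 35 (42.9%), against 52.0% of all promoters. None of the 35 windows held a tRNA gene, against 2.72% of all windows.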
